A study of Mus musculus with 9 samples.

Results

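The 37 genes described here encode the enzymes and transporters of glycolysis, the regulators at its control points and the enzymes of the pentose phosphate pathway. They were chosen by name, by a rule that uses no measured value, though with earlier results of these data known. All 37 were found among the 16200 genes of the deposited table. The 37 genes were read in bone marrow-derived macrophages, which are cells grown from wild-type (WT) mouse marrow for 6 days with supernatant of L929 cells, a fibroblast line used as a source of macrophage growth factor. Each of 3 groups held 3 polyA RNA libraries. One group was untreated, one received 20 ng/ml of interleukin-4 (IL-4) for 12 h and one received 100 ng/ml of interleukin-27 (IL-27) for 6 h. All samples carry 1 treatment text, which leaves unsaid if IL-4 was also given to the IL-27 cells, when the untreated cells were harvested, and if the replicates are separate animals or cultures. The p-values measure the spread between these libraries, and the cytokine and the length of treatment cannot be told apart.

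Glycolysis splits glucose into pyruvate, and several of its steps can be run by alternative isoforms that come from separate genes. Flux is set mainly at glucose entry, at hexokinase and at phosphofructokinase, whose activator fructose-2,6-bisphosphate is made and removed by the PFKFB enzymes. Pyruvate is then either reduced to lactate and exported or passed to the mitochondrial pyruvate dehydrogenase complex, which the PDK kinases switch off by phosphorylation. The pentose phosphate pathway draws glucose-6-phosphate away to make NADPH and ribose. Macrophages activated by microbial products are known for a strong rise in glycolysis, while IL-4 drives alternative activation and IL-27 is a cytokine of the IL-12 family.

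The libraries held 34577188 to 37951827 counts. Untreated replicate 2 and IL-4 replicate 1 stood apart from the other libraries of their groups. Same-group pairs that held one of them differed by a chi-square per gene of 93.5 to 117, against 5.45 to 8.92 in all other same-group pairs. The 2 libraries deviated together from the means of their groups (r = 0.906 over 9553 genes, a description of these libraries), and 29 and 30 of the 37 genes were above the group mean in them. They are kept in all values below unless stated. They were picked from these same counts for their deviation, so adjusted p-values without them may be too small and serve as a description. The macrophage label was checked with 8 markers, all detected in every library, whose summed level was 23083 to 31783 CPM, counts scaled to a common library total, in untreated, 14501 to 18104 in IL-4 and 24257 to 26330.0 in IL-27 libraries. Of these 8, 4 fell with IL-4 and 5 with IL-27 (beside 12.0% and 15.1% of all genes tested), Cd14 with the widest change (log2 fold change -2.64 with IL-4). Markers of fibroblasts summed to 690 to 783 CPM in untreated, 511 to 718 in IL-4 and 1063 to 1333 in IL-27 libraries. Of the 6 fibroblast genes tested, 5 rose in IL-27 cells (beside 14.0% of all genes tested), among them the matrix genes Dcn (log2 fold change 2.18, adjusted p = 0.000147) and Col1a2 (log2 fold change 0.71, adjusted p = 0.00152), and the part of this in the IL-27 results was not tested. Neutrophil markers, nearly all from S100a8, summed to 3.55 to 4.85, 2.05 to 3.05 and 7.91 to 9.08 CPM, and Mpo and Elane were at or near 0. Lists for B, T, erythroid, and mast cells and basophils summed to at most 3.55, 1.11, 0.499 and 0.391 CPM. In bulk RNA, fewer cells of a type and less RNA per cell cannot be told apart.

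Levels are given as FPKM, which is counts per gene length and library total, divided here by the TMM scaling factor of the library, in the order of replicates 1, 2 and 3. Differences are log2 fold changes ± SE from edgeR's quasi-likelihood test on the counts, with p-values adjusted by the Benjamini-Hochberg method over all 12587 genes tested, and "rose" and "fell" are used at an adjusted p under 0.05. All 37 genes passed the filter on low counts. Of the 37, 8 rose and 7 fell with IL-4, while 12.9% of all genes tested rose and 12.0% fell. With IL-27, 7 rose and 10 fell, beside 14.0% and 15.1% of all genes. Against IL-4, 7 genes were higher in IL-27 cells and 14 were lower, beside 18.8% and 21.0% of all genes. The median log2 fold change of the 37 was 0.13, -0.27 and -0.39 in these comparisons, and that of all genes was -0.01, 0.00 and 0.01. The comparisons share their libraries pairwise, so they are not independent.

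Isoforms of one step often moved differently. Hk2, Pfkp, Pgam1, Ldha, Slc16a1 and Rpia rose with both cytokines, and Aldoc and Pdk2 fell with both. Pfkfb3 and Pfkfb4 moved in opposite directions with the 2 cytokines. Pgk1 rose and Pfkl, Pfkfb2, Eno2 and Pdk4 fell with IL-4, and these 5 did not pass the test with IL-27. Slc2a3, Pfkm, Ldhb, Pdk1, G6pdx, Pgd and Taldo1 fell with IL-27 and did not pass the test with IL-4. The other 15 genes passed in neither comparison with untreated cells.

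**Figure D1:**
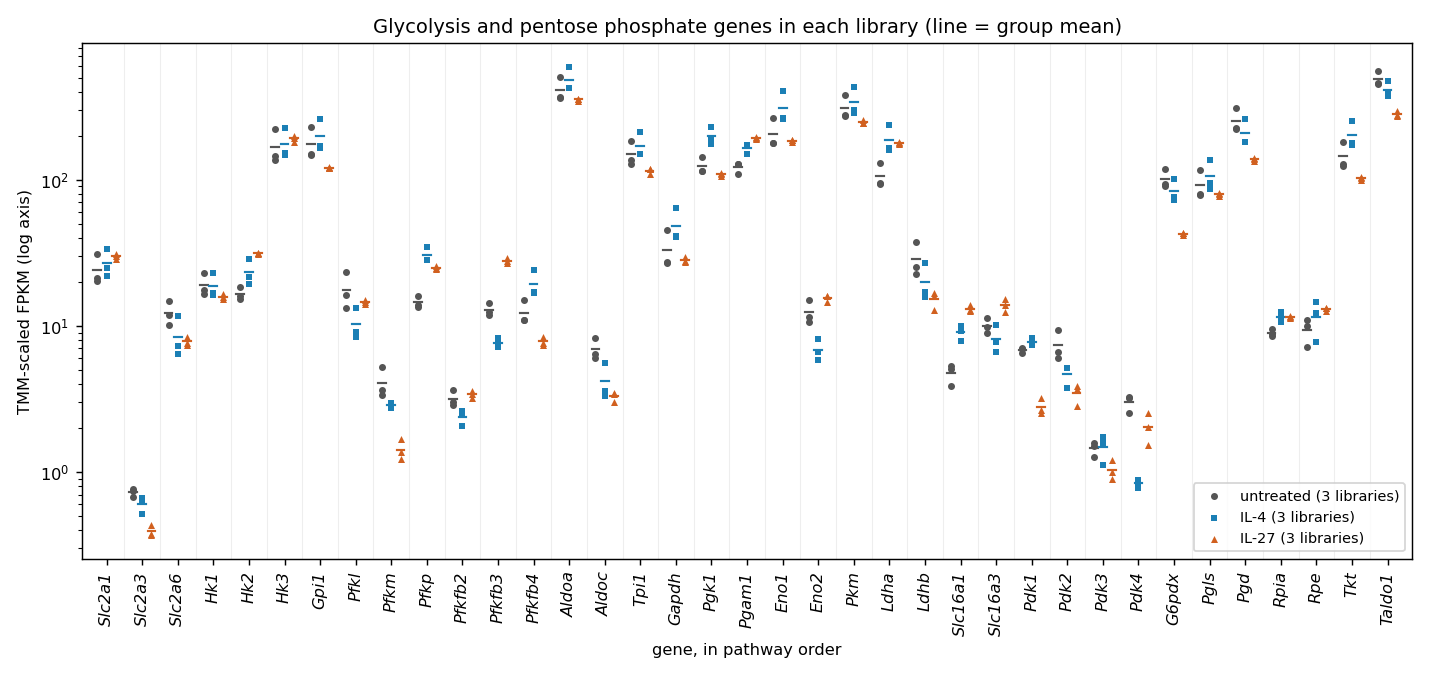
TMM-scaled FPKM (log axis) of the 37 genes in pathway order, with 1 point per library and a line at the mean of each group of 3. Aldoa and Taldo1 lie at the top and Slc2a3 at the bottom, and the higher untreated and IL-4 points of many genes belong to untreated replicate 2 and IL-4 replicate 1.

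Of the 3 glucose transporters, Slc2a3 fell with IL-27, and no increase passed the edgeR test defined above. Slc2a1, the widespread glucose transporter GLUT1, was at 21.1, 31.2 and 20.4 FPKM in the untreated, 33.8, 21.9 and 24.7 in the IL-4 and 30.8, 30.1 and 28.8 in the IL-27 libraries. The untreated and IL-27 groups overlapped through untreated replicate 2, and neither cytokine passed the test (log2 fold change 0.14 ± 0.19, adjusted p = 0.633 with IL-4, and log2 fold change 0.30 ± 0.19, adjusted p = 0.264 with IL-27). Slc2a3, the high-affinity transporter GLUT3, was scarce at 0.768, 0.739 and 0.676 FPKM in the untreated, 0.66, 0.626 and 0.516 in the IL-4 and 0.432, 0.376 and 0.368 in the IL-27 libraries, and it fell with IL-27 (log2 fold change -0.89 ± 0.18, adjusted p = 0.00417) with no overlap between those groups. Without the 2 libraries that stood apart, Slc2a1 passed with IL-4 (log2 fold change 0.17, adjusted p = 0.0442) and with IL-27 (log2 fold change 0.52, adjusted p = 1.39e-07). Slc2a1 also passed with both cytokines in a fit of all 9 libraries with a term shared by those 2 (adjusted p = 0.0219 with IL-4). Those 2 libraries were chosen from these same counts, and calls over all genes also rose in both fits. Slc2a6, a transporter of lysosomes known in mouse macrophages, ranged from 6.39 to 14.9 FPKM and passed in none of the 3 comparisons by the edgeR test defined above. With IL-27 it narrowly missed (log2 fold change -0.65 ± 0.22, adjusted p = 0.0517) with no overlap from untreated libraries. The alternative method DESeq2 and edgeR with upper-quartile scaling, both on 9 libraries, called Slc2a6 lower with IL-27. Slc2a1 made up 64.97% ± 2.06 (SD, n = 3) of the summed FPKM of the 3 transporters in untreated, 75.02% ± 1.53 in IL-4 and 78.4% ± 1.44 in IL-27 cells.

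Among hexokinases, which trap glucose in the cell as glucose-6-phosphate, Hk3 was the most abundant isoform and Hk2 rose with both cytokines. Hk3 was at 146, 221 and 136 FPKM in the untreated, 227, 148 and 152 in the IL-4 and 181, 199 and 194 in the IL-27 libraries, and the groups overlapped. Hk2, the inducible isoform that can bind mitochondria, was at 15.3, 18.4 and 15.9 FPKM in the untreated, 28.8, 19.3 and 21.7 in the IL-4 and 31.4, 31.2 and 31.5 in the IL-27 libraries. It was higher than every untreated library in all treated libraries, and it rose with IL-4 (log2 fold change 0.49 ± 0.14, adjusted p = 0.0288) and with IL-27 (log2 fold change 0.92 ± 0.14, adjusted p = 0.000886). The IL-4 call was lost without untreated replicate 1 (adjusted p = 0.101), without untreated replicate 3 (0.0888) and, by a small margin, without any 1 IL-27 library (0.05001 to 0.0532). Its share of the 3 hexokinases was 8.33% ± 1.2 in untreated, 10.7% ± 0.572 in IL-4 and 13.1% ± 0.546 in IL-27 cells, and Hk3 held 80.2% to 82.2% in all 3 groups. Hk1, the widespread isoform, ranged from 15.3 to 23.1 FPKM and passed in no comparison. Gpi1, the isomerase of the next step, was at 150.3, 231 and 148 FPKM in the untreated, 261, 166 and 170.4 in the IL-4 and 121, 122 and 119.9 in the IL-27 libraries. It passed against untreated cells with neither cytokine and was lower in IL-27 than in IL-4 cells (log2 fold change -0.72 ± 0.21, adjusted p = 0.0192), a call lost without any 1 of the IL-27 libraries (adjusted p = 0.0579 to 0.0611).

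At phosphofructokinase, the committed step of glycolysis, Pfkp rose with both cytokines, Pfkl fell with IL-4 and Pfkm fell with IL-27. Pfkp, the platelet type, was at 13.6, 16.1 and 13.97 FPKM in the untreated, 34.6, 28.1 and 28.3 in the IL-4 and 25.01, 24.6 and 25.6 in the IL-27 libraries. Every treated library was above every untreated one, and Pfkp rose with IL-4 (log2 fold change 1.06 ± 0.11, adjusted p = 8.89e-05) and with IL-27 (log2 fold change 0.79 ± 0.11, adjusted p = 0.000437). Pfkl, the liver type, was at 13.3, 23.3 and 16.3 FPKM in the untreated, 13.3, 8.34 and 9.09 in the IL-4 and 15.1, 14.2 and 14.6 in the IL-27 libraries. It fell with IL-4 (log2 fold change -0.78 ± 0.22, adjusted p = 0.025), although IL-4 replicate 1 reached the level of the lowest untreated library, and did not pass with IL-27 (log2 fold change -0.27 ± 0.22, adjusted p = 0.388). The IL-4 call was lost on leaving out untreated replicate 2 (adjusted p = 0.0530) or, in the IL-4 group, replicate 2 (0.0882) or 3 (0.0901). Pfkm, the muscle type, was at 3.38, 5.25 and 3.61 FPKM in the untreated, 2.97, 2.76 and 2.82 in the IL-4 and 1.67, 1.22 and 1.36 in the IL-27 libraries. It was lowest in the IL-27 libraries with no overlap, and it fell with IL-27 (log2 fold change -1.52 ± 0.19, adjusted p = 0.000278) but did not pass with IL-4 (log2 fold change -0.52 ± 0.19, adjusted p = 0.0695).

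As shares of the summed FPKM of the step, Pfkp went from 40.7% ± 4.46 in untreated to 70.05% ± 1.83 in IL-4 and 60.9% ± 0.979 in IL-27 cells (SD, n = 3). Pfkl held 48.1% ± 4.14, 23.3% ± 2.49 and 35.6% ± 0.507, and Pfkm held 11.2% ± 0.54, 6.63% ± 0.684 and 3.45% ± 0.492. The 3 groups did not overlap in the share of any of these isoforms, and in untreated cells Pfkl led in replicates 2 and 3 while Pfkp led by a narrow margin in replicate 1 (44.9% against 43.9%). An exact two-sided permutation test of 3 against 3 libraries cannot go below p = 0.10, the value of each of these contrasts. Over the 72 share comparisons made, for 24 isoforms of 9 steps, the smallest adjusted value was 0.136. Shares are therefore a description. The summed FPKM of the 3 genes was 30.2, 44.6 and 33.8 in untreated, 50.8, 39.2 and 40.2 in IL-4 and 41.8, 40.0 and 41.6 in IL-27 libraries, so untreated replicate 2 reached the treated range.

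**Figure D2:**
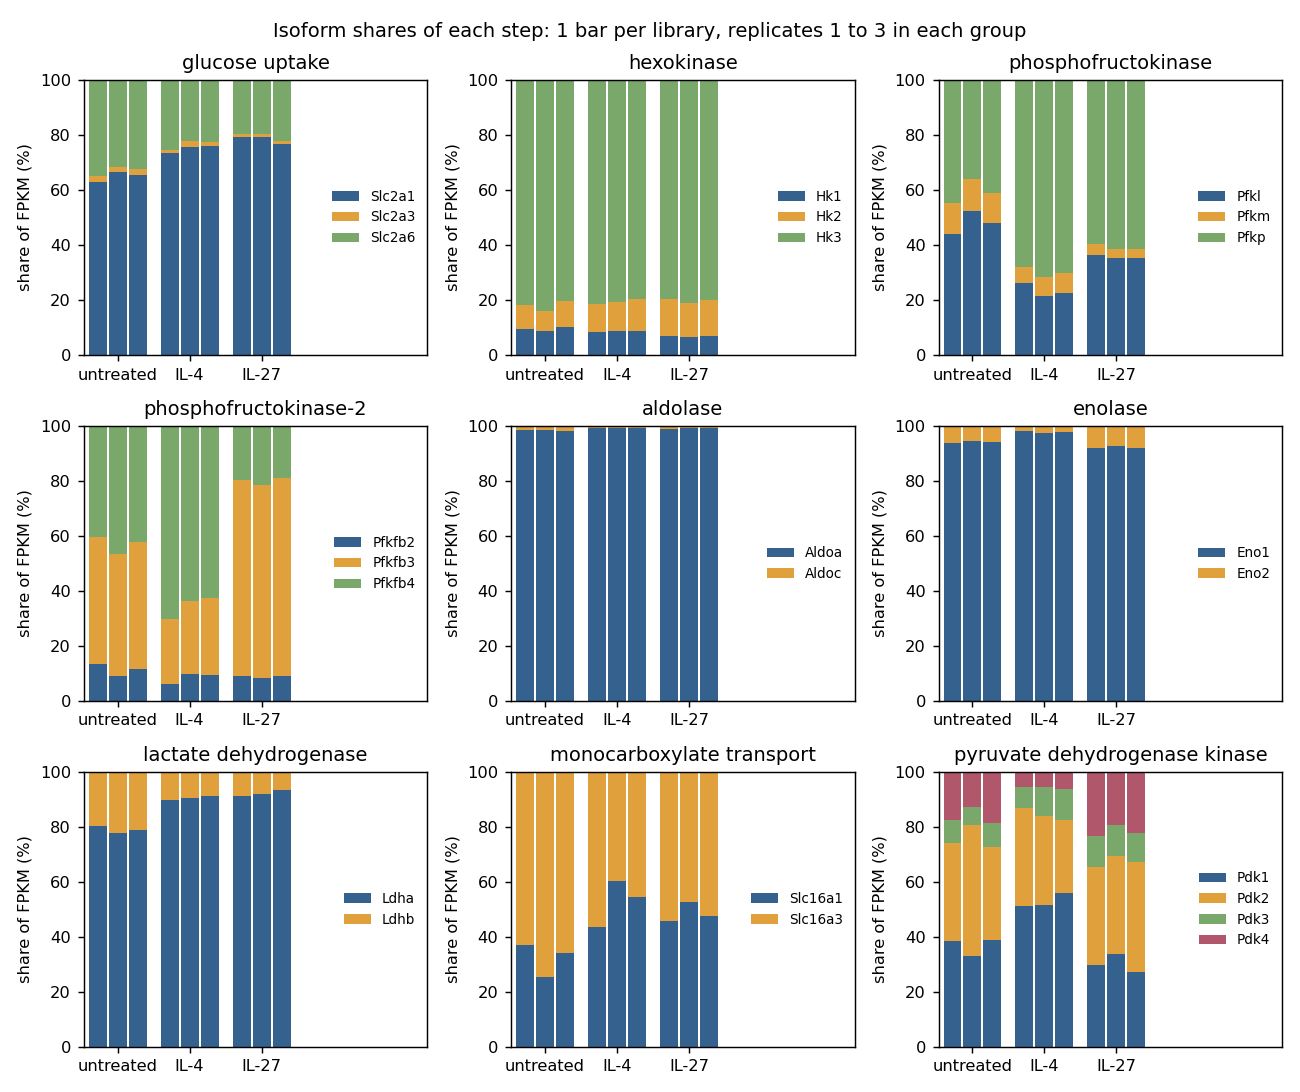
Share (%) of the summed FPKM of each step held by its isoforms, with 1 stacked bar per library in the order of replicates 1 to 3. The Pfkfb3 share is 23.9% to 28.1% in IL-4 and 70.4% to 72.2% in IL-27 libraries, and the Pfkp share is 36.0% to 44.9% in untreated and 59.8% to 71.7% in treated libraries.

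The PFKFB genes separated the 2 cytokines. Pfkfb3, the isoform with the highest kinase activity, was at 12.4, 14.3 and 11.9 FPKM in the untreated, 8.25, 7.18 and 7.55 in the IL-4 and 27.02, 27.7 and 29.03 in the IL-27 libraries. The 3 groups did not overlap: Pfkfb3 fell with IL-4 (log2 fold change -0.75 ± 0.10, adjusted p = 0.000379), rose with IL-27 (log2 fold change 1.12 ± 0.10, adjusted p = 2.29e-05) and was 3.64-fold higher in IL-27 than in IL-4 cells (log2 fold change 1.87 ± 0.10, adjusted p = 4.32e-07). Pfkfb4, a further inducible isoform, was at 10.96, 14.99 and 10.9 FPKM in the untreated, 24.3, 17.2 and 16.8 in the IL-4 and 7.42, 8.44 and 7.6 in the IL-27 libraries. The 3 groups were again apart, in the opposite order, with a rise in IL-4 (log2 fold change 0.66 ± 0.17, adjusted p = 0.0181) and a fall in IL-27 cells (log2 fold change -0.65 ± 0.17, adjusted p = 0.0167). The IL-4 call was lost without untreated replicate 1 (adjusted p = 0.0707) or 3 (0.0696), and the IL-27 call without IL-27 replicate 1 (0.0672) or 3 (0.0626). The IL-4 call of Pfkfb4 was also lost with only the untreated and IL-4 libraries in the fit. IL-27 cells were lower than IL-4 cells (log2 fold change -1.31 ± 0.17, adjusted p = 0.000199). Pfkfb2, known from heart, was scarcer, at 2.06 to 3.66 FPKM, and fell with IL-4 (log2 fold change -0.41 ± 0.13, adjusted p = 0.0393), a call lost without any 1 of 7 libraries (adjusted p = 0.0604 to 0.149).

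Pfkfb3 and Pfkfb4 together held most of the PFKFB FPKM in every group, and which of them led differed. Pfkfb3 held 45.5% ± 0.943 in untreated, 26.2% ± 2.17 in IL-4 and 71.3% ± 0.885 in IL-27 cells. Pfkfb4 held 43.1% ± 3.17, 65.5% ± 4.11 and 19.98% ± 1.32. The summed FPKM of the 3 genes was 27.0, 32.1 and 25.9 in untreated, 34.6, 27.0 and 26.8 in IL-4 and 37.9, 39.4 and 40.2 in IL-27 libraries, so IL-27 libraries were above all others and the IL-4 and untreated libraries overlapped.

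Promoter windows are shown for the PFKFB pair that moved in opposite directions and for Ldha and Slc16a1, the lactate genes that rose with both cytokines (described below). Each window is 300 bases, from 250 before to 50 after a RefSeq transcription start, on mouse build GRCm38.p6, an older build than the GRCm39 named in the submitters' processing notes. Capitals mark the core of the hypoxia response element, ACGTG or GCGTG, on either strand. HIF-1, the hypoxia-inducible factor, is known to bind this core in glycolytic genes.
Pfkfb3 (chr2:11502041-11502340, minus strand): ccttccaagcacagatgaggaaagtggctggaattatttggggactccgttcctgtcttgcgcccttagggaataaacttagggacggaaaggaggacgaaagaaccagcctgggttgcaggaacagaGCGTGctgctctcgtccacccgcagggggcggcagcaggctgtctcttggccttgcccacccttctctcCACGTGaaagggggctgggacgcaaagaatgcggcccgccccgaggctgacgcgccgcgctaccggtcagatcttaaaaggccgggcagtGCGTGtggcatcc
Pfkfb4 (chr9:108991652-108991951, plus strand): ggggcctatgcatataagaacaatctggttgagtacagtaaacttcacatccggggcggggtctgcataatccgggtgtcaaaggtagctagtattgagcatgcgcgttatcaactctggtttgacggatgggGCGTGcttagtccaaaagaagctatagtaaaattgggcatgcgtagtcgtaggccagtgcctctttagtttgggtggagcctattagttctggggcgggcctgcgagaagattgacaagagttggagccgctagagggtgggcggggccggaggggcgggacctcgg
Ldha (chr7:46845554-46845853, plus strand): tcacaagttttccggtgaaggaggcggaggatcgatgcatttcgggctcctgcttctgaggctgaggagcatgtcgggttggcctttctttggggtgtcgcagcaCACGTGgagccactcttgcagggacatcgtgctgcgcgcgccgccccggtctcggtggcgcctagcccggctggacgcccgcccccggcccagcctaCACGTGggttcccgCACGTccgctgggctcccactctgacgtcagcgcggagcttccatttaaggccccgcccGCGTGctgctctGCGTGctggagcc
Slc16a1 (chr3:104638414-104638713, plus strand): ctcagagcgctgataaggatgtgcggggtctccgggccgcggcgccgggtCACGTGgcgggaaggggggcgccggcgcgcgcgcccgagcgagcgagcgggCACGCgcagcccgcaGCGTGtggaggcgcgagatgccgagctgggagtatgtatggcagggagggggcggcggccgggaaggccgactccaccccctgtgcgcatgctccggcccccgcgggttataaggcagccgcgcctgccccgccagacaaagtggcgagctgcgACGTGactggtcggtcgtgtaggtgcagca

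These windows held 4, 1, 7 and 5 cores in the order shown. A CACGTG stretch holds the core on both strands and was counted as 2, so marked stretches can be fewer than cores. Pfkfb4 and Slc16a1 have a single window, while Pfkfb3 and Ldha have 2, of which the one with more cores is shown. The other Pfkfb3 window held 1 core and the other Ldha window held 2. The windows of Hk2, Pfkp, Pgam1 and Rpia, which also rose with both cytokines, held 2, 4, 3 and 1 cores. Windows of members that rose with neither cytokine held from 0, as in Tpi1, to 5, in Hk1. The core was in at least 1 window of 32 of the 36 members with a window (88.9%), against 46.7% of 27025 genes, and in 79.2% of 53 member windows against 43.8% of 32851 windows. Member windows were also richer in G and C, with a median of 60.7% against 52.7%, so the 2 sets differ in base composition. These matches are descriptions of sequence, and no binding was measured.

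In the lower part of glycolysis, Pgk1 rose with IL-4, Pgam1 rose with both cytokines and Aldoc fell with both. Aldoa, the main aldolase, was at 365, 508 and 368 FPKM in the untreated, 593, 426 and 426 in the IL-4 and 348, 357 and 358 in the IL-27 libraries, with no call in any comparison. The IL-27 libraries were all below the untreated and the IL-4 libraries, by a narrow margin against untreated, and the untreated and IL-4 libraries overlapped. Aldoc, the brain type, was at 6.03, 8.2 and 6.46 FPKM in the untreated, 5.61, 3.3 and 3.59 in the IL-4 and 3.47, 3.39 and 2.998 in the IL-27 libraries. It fell with IL-4 (log2 fold change -0.73 ± 0.20, adjusted p = 0.0266) and IL-27 (log2 fold change -1.07 ± 0.21, adjusted p = 0.00356), and the IL-4 call was lost on leaving out untreated replicate 2 (adjusted p = 0.0620) or 3 (0.0510) or, in the IL-4 group, replicate 2 (0.0900) or 3 (0.0967). Aldoa held 98.4% to 99.2% of aldolase FPKM in the 3 groups on average, so the fall of Aldoc concerned a small share.

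Tpi1, which interconverts the triose phosphates, was at 135, 184 and 129 FPKM in the untreated, 211, 149.8 and 151 in the IL-4 and 119, 118 and 109.7 in the IL-27 libraries. It passed with neither cytokine and was lower in IL-27 than in IL-4 cells (log2 fold change -0.56 ± 0.16, adjusted p = 0.0214). Gapdh, the dehydrogenase of the triose step, was at 27.4, 45.1 and 26.98 FPKM in the untreated, 63.6, 41.1 and 40.7 in the IL-4 and 29.8, 27.9 and 27.4 in the IL-27 libraries. It passed with neither cytokine (log2 fold change 0.55 ± 0.22, adjusted p = 0.106 with IL-4), and IL-27 cells were lower than IL-4 cells (log2 fold change -0.77 ± 0.23, adjusted p = 0.0206). Both calls against IL-4 were lost without IL-4 replicate 1 (adjusted p = 0.0514 for Tpi1 and 0.0523 for Gapdh) or any 1 IL-27 library (0.0571 to 0.0769 for Tpi1 and 0.0534 to 0.0689 for Gapdh). Gapdh lay below Aldoa in every library per length. The mouse genome holds many processed copies of Gapdh and some of Ldha, Pgk1, Pgam1 and Eno1, and the counting of reads shared between copies is not stated in those sources, so the levels of these genes are uncertain.

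Pgk1, the first of the ATP-producing kinases, was at 115, 144 and 114 FPKM in the untreated, 231, 187 and 176 in the IL-4 and 111, 106 and 109 in the IL-27 libraries. All IL-4 libraries were above all others, and Pgk1 rose with IL-4 (log2 fold change 0.67 ± 0.12, adjusted p = 0.00331) and was lower in IL-27 than in IL-4 cells (log2 fold change -0.87 ± 0.12, adjusted p = 0.000366). Pgam1, the phosphoglycerate mutase, was at 128, 109.6 and 129 FPKM in the untreated, 150.2, 172 and 171 in the IL-4 and 196, 191 and 192 in the IL-27 libraries. The 3 groups rose in this order without overlap, with calls for IL-4 (log2 fold change 0.43 ± 0.09, adjusted p = 0.00759) and IL-27 (log2 fold change 0.66 ± 0.09, adjusted p = 0.000525). For Pgam1 the libraries that stood apart were the lowest of their groups, the opposite of their direction for most of the 37 genes.

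Enolase, which makes phosphoenolpyruvate, was mostly Eno1. Its levels were 177, 264 and 177 FPKM in the untreated, 404, 265 and 261 in the IL-4 and 188, 182 and 187 in the IL-27 libraries, and IL-4 replicate 1 was far above the rest. Eno1 did not pass with IL-4 (log2 fold change 0.59 ± 0.20, adjusted p = 0.0515) or IL-27, and was lower in IL-27 than in IL-4 cells (log2 fold change -0.74 ± 0.20, adjusted p = 0.0129). Eno2, the neuronal type, was at 11.5, 14.95 and 10.7 FPKM in the untreated, 8.07, 6.59 and 5.86 in the IL-4 and 16.1, 14.6 and 16.1 in the IL-27 libraries. It fell with IL-4 (log2 fold change -0.86 ± 0.15, adjusted p = 0.00272) and was higher in IL-27 than in IL-4 cells (log2 fold change 1.19 ± 0.15, adjusted p = 0.000178). Its share of the 2 enolases was 5.71% ± 0.357 in untreated, 2.19% ± 0.235 in IL-4 and 7.76% ± 0.264 in IL-27 cells, with no overlap between the groups. Pkm, the pyruvate kinase whose splice forms are counted together here, was at 279, 381 and 271 FPKM in the untreated, 432, 288 and 301 in the IL-4 and 256, 246 and 245 in the IL-27 libraries. It passed in no comparison, and the untreated and IL-4 libraries overlapped.

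The lactate end of the pathway moved towards Ldha and Slc16a1 with both cytokines. Ldha, the lactate dehydrogenase subunit that favours lactate formation, was at 92.8, 131 and 94.9 FPKM in the untreated, 238, 164 and 159.7 in the IL-4 and 177, 180.4 and 179 in the IL-27 libraries. All treated libraries were above all untreated ones, and Ldha rose with IL-4 (log2 fold change 0.82 ± 0.17, adjusted p = 0.00714) and with IL-27 (log2 fold change 0.75 ± 0.17, adjusted p = 0.00935). Ldhb, the heart type subunit, was at 22.8, 37.7 and 25.4 FPKM in the untreated, 27.1, 17.04 and 15.7 in the IL-4 and 16.9, 15.97 and 12.8 in the IL-27 libraries. It fell with IL-27 (log2 fold change -0.91 ± 0.24, adjusted p = 0.0183), a call lost without IL-27 replicate 2 (adjusted p = 0.0528) or 3 (0.0781), and did not pass with IL-4 (log2 fold change -0.52 ± 0.24, adjusted p = 0.148). Ldha held 78.9% ± 1.33 of the FPKM of both subunits in untreated, 90.5% ± 0.656 in IL-4 and 92.2% ± 1.04 in IL-27 cells, with no overlap between the groups. The size of this shift depends on gene length: as shares of counts, Ldha held 93.9%, 97.5% and 98.0%.

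Slc16a1, the lactate carrier MCT1, was at 5.28, 3.87 and 5.09 FPKM in the untreated, 7.87, 10.04 and 9.29 in the IL-4 and 12.9, 13.8 and 12.6 in the IL-27 libraries. The 3 groups did not overlap, and Slc16a1 rose with IL-4 (log2 fold change 0.93 ± 0.14, adjusted p = 0.000883) and with IL-27 (log2 fold change 1.46 ± 0.14, adjusted p = 4.26e-05), the IL-27 level being above that of IL-4 (log2 fold change 0.53 ± 0.14, adjusted p = 0.0107). Slc16a3, the export carrier MCT4, was at 8.95, 11.3 and 9.89 FPKM in the untreated, 10.2, 6.62 and 7.73 in the IL-4 and 15.3, 12.4 and 13.8 in the IL-27 libraries. It was highest in the IL-27 libraries, but the difference from untreated cells did not pass (log2 fold change 0.46 ± 0.16, adjusted p = 0.0561), while IL-27 cells were above IL-4 cells (log2 fold change 0.76 ± 0.16, adjusted p = 0.00437). The summed FPKM of both carriers was 14.2 to 15.2 in untreated, 16.7 to 18.1 in IL-4 and 26.2 to 28.2 in IL-27 libraries. Slc16a1 held 32.2% ± 5.998, 52.8% ± 8.5 and 48.7% ± 3.52 of it, and the IL-4 and IL-27 shares overlapped.

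**Figure D3:**
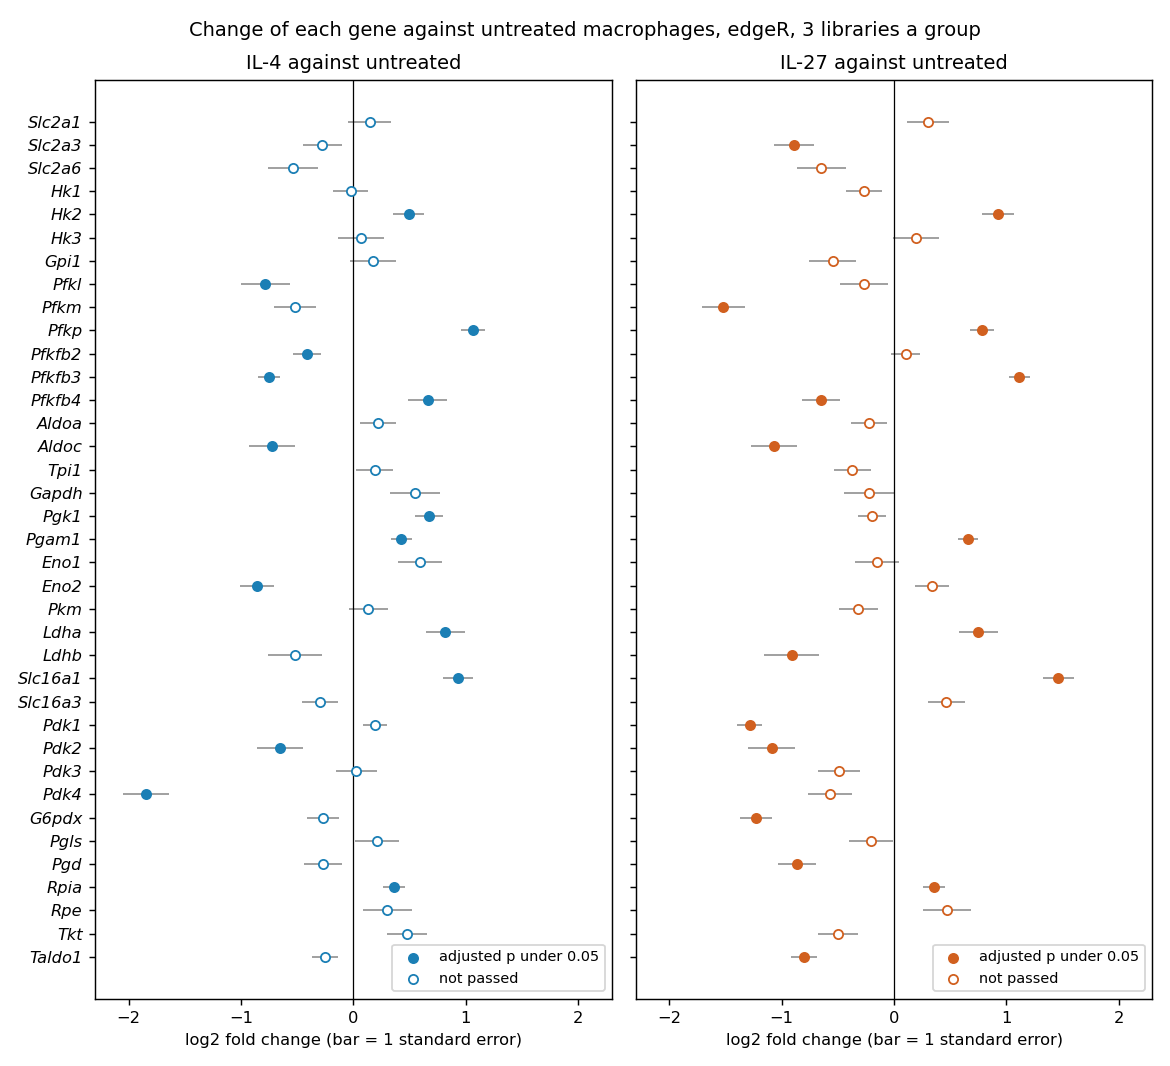
Log2 fold change of each of the 37 genes with IL-4 (left) and IL-27 (right) against untreated macrophages, with bars of 1 SE and filled points at an adjusted p under 0.05. Pfkfb3 lies at -0.75 and 1.12, Pfkfb4 at 0.66 and -0.65, Pdk4 at -1.85 and -0.57, and G6pdx at -0.27 and -1.23 in the 2 panels.

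The PDK kinases, which switch off the pyruvate dehydrogenase complex, fell at different isoforms. Pdk4, the isoform linked to fasting and fat oxidation, was at 3.21, 2.54 and 3.27 FPKM in the untreated, 0.773, 0.853 and 0.877 in the IL-4 and 2.53, 1.52 and 2.04 in the IL-27 libraries. The IL-4 libraries did not exceed 0.877 FPKM and no other library was below 1.52, and Pdk4 fell with IL-4 (log2 fold change -1.85 ± 0.20, adjusted p = 0.000149), the largest change of the 37 genes against untreated cells. It did not pass with IL-27 (log2 fold change -0.57 ± 0.19, adjusted p = 0.0512). Pdk1, a known HIF-1 target, was at 7.02, 6.56 and 6.9 FPKM in the untreated, 7.35, 8.21 and 7.87 in the IL-4 and 3.23, 2.65 and 2.52 in the IL-27 libraries. All IL-27 libraries were below all others, and Pdk1 fell with IL-27 (log2 fold change -1.29 ± 0.11, adjusted p = 2.34e-05) and was lower than in IL-4 cells (log2 fold change -1.48 ± 0.11, adjusted p = 4.33e-06), while IL-4 alone did not pass (log2 fold change 0.19 ± 0.11, adjusted p = 0.232).

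Pdk2, the most widespread isoform, was at 6.59, 9.41 and 6.01 FPKM in the untreated, 5.16, 5.12 and 3.73 in the IL-4 and 3.87, 2.81 and 3.67 in the IL-27 libraries. It fell with both cytokines (log2 fold change -0.65 ± 0.21, adjusted p = 0.0436 with IL-4, and log2 fold change -1.09 ± 0.21, adjusted p = 0.00336 with IL-27). The IL-4 call was lost without any 1 of 6 libraries, namely untreated replicates 1 and 2, IL-4 replicates 2 and 3 and IL-27 replicates 1 and 3 (adjusted p = 0.0612 to 0.144). Pdk3 was scarce, at 0.890 to 1.73 FPKM, and its lower level in IL-27 than in IL-4 cells (log2 fold change -0.52 ± 0.18, adjusted p = 0.0487) was lost without any 1 of 6 libraries (adjusted p = 0.0613 to 0.164). The summed FPKM of the 4 kinases was 17.8 to 19.8 in untreated, 14.1 to 15.9 in IL-4 and 7.86 to 10.8 in IL-27 libraries, with no overlap. Pdk1 held 36.8% ± 3.11, 52.9% ± 2.68 and 30.3% ± 3.18 of it, and Pdk4 held 16.3% ± 2.998, 5.66% ± 0.5 and 21.6% ± 2.06.

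Of the pentose phosphate genes, G6pdx, Pgd and Taldo1 fell with IL-27. Of the 7, 1 rose with IL-4 (beside 12.9% of all genes tested), and 1 rose and 3 fell with IL-27 (beside 14.0% and 15.1%). No decrease with IL-4 passed by edgeR or by DESeq2, and the 2 of the 7 at an unadjusted p under 0.05 by edgeR, Rpia and Tkt, were increases. Unlike edgeR, DESeq2 called Tkt higher with IL-4 and lower with IL-27. Without the 2 libraries that stood apart, all 7 passed with IL-4, as Pgls, Rpia, Rpe and Tkt rose and G6pdx, Pgd and Taldo1 fell (log2 fold changes -0.29, -0.30 and -0.26). In that fit, made after those libraries were picked from these counts, 3061 of all 12748 genes were higher and 2848 lower with IL-4. Against IL-4, 4 of the 7 were lower in IL-27 cells, the 4 at an unadjusted p under 0.05, and none was higher by edgeR or DESeq2. Of all genes tested, 21.0% were lower and 18.8% higher by edgeR. The median log2 fold change of the 7 pentose phosphate genes was 0.21, -0.50 and -0.55 in the 3 comparisons.

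G6pdx, the first and rate-limiting NADPH-producing enzyme, was at 92.8, 118 and 90.4 FPKM in the untreated, 101, 76.6 and 72.4 in the IL-4 and 42.99, 43.3 and 41.8 in the IL-27 libraries. Every IL-27 library was below every other library, and G6pdx fell with IL-27 (log2 fold change -1.23 ± 0.14, adjusted p = 0.000161) but did not pass with IL-4 (log2 fold change -0.27 ± 0.14, adjusted p = 0.196). Pgd, the second NADPH-producing dehydrogenase, was at 222, 307 and 225 FPKM in the untreated, 262, 182 and 182 in the IL-4 and 142, 138 and 135 in the IL-27 libraries, and it fell with IL-27 (log2 fold change -0.87 ± 0.17, adjusted p = 0.00352) without overlap. Pgls, the lactonase between them, was at 78.7, 117 and 80.1 FPKM in the untreated, 137, 86.9 and 94.3 in the IL-4 and 76.98, 81.3 and 80.4 in the IL-27 libraries. It passed in no comparison, and its groups overlapped with untreated cells.

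In the non-oxidative branch, which returns pentoses to glycolysis, Taldo1 and Tkt were the abundant members. Taldo1, the transaldolase, was at 461, 555 and 455 FPKM in the untreated, 474, 377 and 386 in the IL-4 and 275, 296 and 276 in the IL-27 libraries, and it fell with IL-27 (log2 fold change -0.80 ± 0.12, adjusted p = 0.000635) with no overlap. Tkt, the transketolase, was at 128, 183 and 124 FPKM in the untreated, 252, 178 and 174 in the IL-4 and 98.9, 105 and 103 in the IL-27 libraries. It was lower in every IL-27 library than in any other, but the difference from untreated cells did not pass (log2 fold change -0.50 ± 0.18, adjusted p = 0.0574). IL-4 did not pass for Tkt (log2 fold change 0.48 ± 0.18, adjusted p = 0.0772), and IL-27 cells were below IL-4 cells (log2 fold change -0.98 ± 0.18, adjusted p = 0.00165). Both differences of Tkt from untreated cells passed by DESeq2.

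Rpia, the isomerase that makes ribose-5-phosphate, was at 8.58, 8.82 and 9.45 FPKM in the untreated, 12.3, 11.5 and 10.7 in the IL-4 and 11.2, 11.4 and 11.6 in the IL-27 libraries. It rose by a small amount with IL-4 (log2 fold change 0.36 ± 0.10, adjusted p = 0.0239) and IL-27 (log2 fold change 0.35 ± 0.10, adjusted p = 0.0237). The IL-4 call was lost without untreated replicate 1 (adjusted p = 0.0849) or, in the IL-4 group, replicate 1 (0.0516) or 2 (0.0611), and the IL-27 call without untreated replicate 1, untreated replicate 2 or any 1 IL-27 library (0.0532 to 0.0889). Rpe, the epimerase beside it, was at 9.97, 7.19 and 10.96 FPKM in the untreated, 7.81, 14.6 and 12.3 in the IL-4 and 13.3, 13.2 and 12.6 in the IL-27 libraries and passed in no comparison. Its lowest libraries in the untreated and IL-4 groups were the 2 that stood apart.

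Between the cytokines, the 7 genes higher in IL-27 than in IL-4 cells were Hk2, Pfkfb2, Pfkfb3, Eno2, Slc16a1, Slc16a3 and Pdk4. The 14 lower ones were Slc2a3, Gpi1, Pfkm, Pfkfb4, Tpi1, Gapdh, Pgk1, Eno1, Pdk1, Pdk3, G6pdx, Pgd, Tkt and Taldo1. The largest was Pfkfb3, followed by Pdk1, Pfkfb4 and Pdk4 (log2 fold change 1.28 ± 0.20, adjusted p = 0.0007). For G6pdx the difference was a log2 fold change -0.96 ± 0.14, adjusted p = 0.000441, for Pfkm a log2 fold change -1.004 ± 0.19, adjusted p = 0.00221 and for Taldo1 a log2 fold change -0.55 ± 0.12, adjusted p = 0.00396. The small differences in Hk2 (log2 fold change 0.43 ± 0.14, adjusted p = 0.033), Slc2a3 (log2 fold change -0.61 ± 0.18, adjusted p = 0.0199) and Pgd (log2 fold change -0.60 ± 0.17, adjusted p = 0.0171) were each lost without at least 1 library. These were IL-4 replicates 2 and 3 and any IL-27 library for Hk2 (adjusted p = 0.0821 to 0.103), IL-4 replicates 1 and 2 and IL-27 replicates 2 and 3 for Slc2a3 (0.0516 to 0.0669), and IL-27 replicates 2 and 3 for Pgd (0.0555 to 0.0604). The dose and the length of treatment also differ between these groups.

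Isoforms of the same steps outside the 37 genes were mostly scarce. Of 25 listed, 19 were in the table and 13 passed the filter, and with IL-27 2 of these rose and 2 fell (beside 14.0% and 15.1% of all genes tested). With IL-4, edgeR called 0 of the 13, of which 4 were at an unadjusted p under 0.05, and DESeq2 called 1 higher and 1 lower. Of all 12587 genes tested with IL-4, edgeR called 12.9% higher and 12.0% lower, and DESeq2 called 1952 higher and 1888 lower. Eno3, the muscle enolase, reached the range of Eno2 at 8.59, 15.8 and 8.26 FPKM in the untreated, 20.9, 3.95 and 10.05 in the IL-4 and 7.44, 7.41 and 8.83 in the IL-27 libraries, varied within groups and passed in no comparison. Slc2a8, a further transporter, was at 6.10 to 11.9 FPKM and also passed in none, and the other 17 did not exceed 3.15 FPKM. The enolase shares above leave Eno3 out and the uptake shares leave out Slc2a8. These 2 were singled out after their values were seen.

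Around the pathway, regulators and neighbouring enzymes were read in the same fit. Of 21 tested regulators of glucose use, 1 rose and 1 fell with IL-4 (beside 12.9% and 12.0% of all genes tested), and 5 rose and 1 fell with IL-27 (beside 14.0% and 15.1%). Against IL-4, 8 of these regulators were higher and 3 lower in IL-27 cells, beside 18.8% and 21.0% of all genes tested. Myc, a transcription factor known to act on glycolytic genes, was at 7.24, 8.41 and 6.45 FPKM in the untreated, 35.1, 28.8 and 27.5 in the IL-4 and 8.21, 8.42 and 9.35 in the IL-27 libraries. It rose with IL-4 (log2 fold change 2.05 ± 0.14, adjusted p = 6.4e-06), was lower in IL-27 than in IL-4 cells (log2 fold change -1.82 ± 0.13, adjusted p = 3.8e-06) and did not pass with IL-27 alone. Hif1a, which encodes the regulated subunit of HIF-1, was at 15.7, 10.4 and 16.8 FPKM in the untreated, 10.1, 15.2 and 15.5 in the IL-4 and 27.8, 27.9 and 28.4 in the IL-27 libraries, and it was higher in IL-27 than in IL-4 cells (log2 fold change 1.04 ± 0.20, adjusted p = 0.00217) and in untreated cells (log2 fold change 0.97 ± 0.20, adjusted p = 0.00485). HIF-1 is regulated mainly through protein stability, which RNA does not show.

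Of 13 tested genes of glycogen use and gluconeogenesis, 1 fell with IL-4 (beside 12.0% of all genes tested), and 1 rose and 3 fell with IL-27 (beside 14.0% and 15.1%). Both glycogen phosphorylases, which release glucose units from glycogen, were among those that fell with IL-27. Pygl was at 37.8, 47.5 and 39.6 FPKM in the untreated, 30.03, 27.4 and 24.8 in the IL-4 and 18.5, 18.1 and 18.1 in the IL-27 libraries and Pygb at 18.7, 24.5 and 17.8 FPKM in the untreated, 23.5, 16.1 and 17.99 in the IL-4 and 9.21, 9.45 and 9.1 in the IL-27 libraries. Pygl fell with IL-4 (log2 fold change -0.60 ± 0.11, adjusted p = 0.00289) and with IL-27 (log2 fold change -1.19 ± 0.11, adjusted p = 3.66e-05), and Pygb with IL-27 (log2 fold change -1.14 ± 0.16, adjusted p = 0.000528). Of 14 genes for pyruvate entry into mitochondria and the glycerol phosphate shuttle, 1 rose with IL-4 (beside 12.9% of all genes tested). With IL-27, 3 of them rose and 1 fell (beside 14.0% and 15.1%).

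Leaving out untreated replicate 2 and IL-4 replicate 1 together raised the number of calls, among the 37 genes and over all genes, and turned no called direction. With the remaining 7 libraries, 17 of the 37 genes rose and 13 fell with IL-4, and all 15 calls made with 9 libraries were kept. Over all genes, calls with IL-4 went from 1630 higher and 1515 lower of 12587 to 3061 and 2848 of 12748. With IL-27, 12 of the 37 rose and 17 fell, beside 3089 and 3224 of all 12748 genes, and all 17 calls were kept. Against IL-4, 12 of the 37 were higher and 18 lower in IL-27 cells, beside 3560 and 3866 of all 12748 genes. Of 21 calls, 20 were kept, Slc2a3 being lost (adjusted p = 0.0552). Genes that passed in this fit and not in the edgeR test of 9 libraries defined above included Eno1 and Tkt with IL-4 (log2 fold changes 0.57 and 0.49, adjusted p = 6.6e-11 and 2.98e-09) and Hk3 with IL-27 (0.44, adjusted p = 1.07e-08). DESeq2 with 9 libraries also called Eno1 and Tkt higher with IL-4. So did edgeR on 9 libraries with a term shared by the 2, which also called Hk3 with IL-27. Ldha, which did not pass between the cytokines with 9 libraries (log2 fold change -0.07 ± 0.17, adjusted p = 0.788), was higher in IL-27 cells in the fit without those 2 libraries (log2 fold change 0.14, adjusted p = 0.0039). Untreated and IL-4 cells have 2 libraries each in this fit. The 2 libraries left out were picked from these same counts, so adjusted p-values without them may be too small and are a description.

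**Figure D4:**
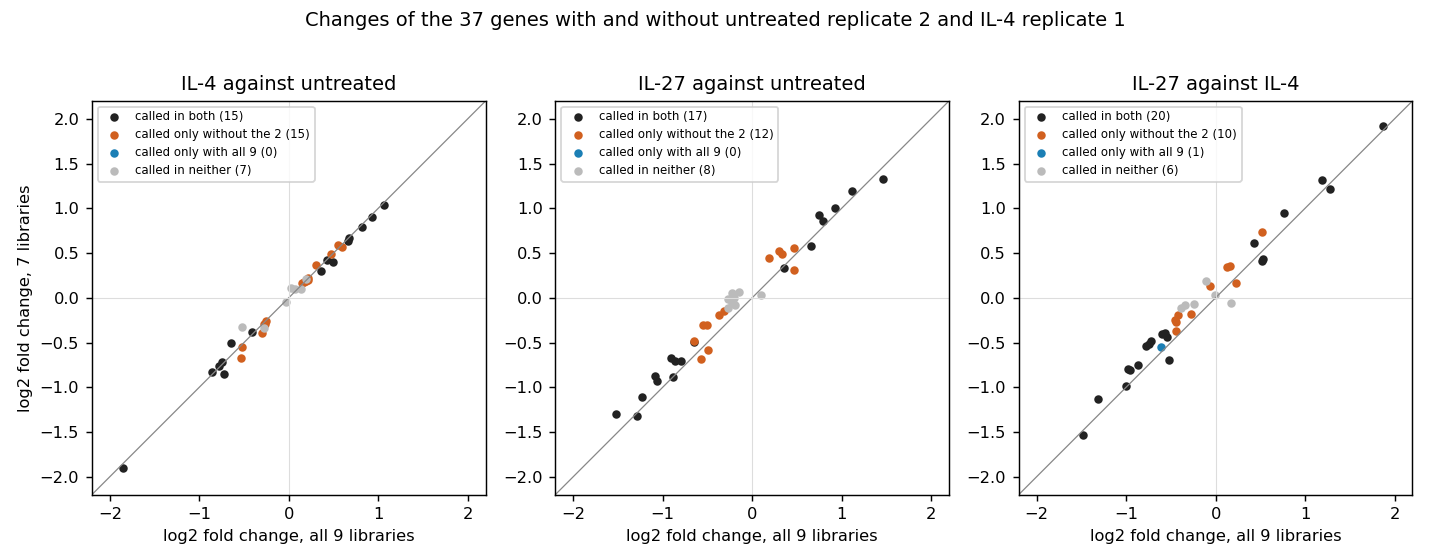
Log2 fold change of each of the 37 genes from all 9 libraries (x axis) against that without untreated replicate 2 and IL-4 replicate 1 (y axis), for the 3 comparisons, with colours for the fit in which a gene was called and a line of equality. All genes called with 9 libraries lie in the same quadrant on both axes, and 15, 12 and 10 genes were called only without the 2 libraries. Calls over all genes also rose without them.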

How the data were processed

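The deposited counts of 16200 genes are whole numbers, and the deposited FPKM values were made from them by the authors, since dividing counts by FPKM gave whole gene lengths (within 0.001) for 100% of genes. The submitters' processing notes name fastp, HISAT2, HTSeq and GRCm39 without versions, and strand, annotation and the counting of shared reads are not given in these sources. Counts were fitted in R 4.3.3 with edgeR 4.0.16 in 1 quasi-likelihood model of all 9 libraries (TMM factors 0.918 to 1.06, filterByExpr with a minimum count of 10, Benjamini-Hochberg adjustment over 12587 genes). SEs are approximate, taken from the log2 fold change and its F statistic. DESeq2 1.42.0, other scalings and filters, and libraries left out served as alternatives. The procedure was tested on simulated counts of independent libraries. These lack the deviation shared by untreated replicate 2 and IL-4 replicate 1, so they do not show how the procedure handles it. The labels give 3 replicates a group, numbered alike, with no stated pairing. The genes and lists were chosen with earlier results of these data known. Library values are given for genes called with a fold of at least 1.5 and for the highest isoform of each step, and for genes of other lists called with a fold of at least 2 and a mean of at least 5 CPM. Total counts per library (34577188 to 37951827) left the scarcest of the 37 genes with at least 79 counts. Promoter sequences are RefSeq's, on GRCm38.p6, and were matched by symbol for 36 of the 37 genes. They were searched on both strands for 4 motifs, of which the HIF core is reported and the others are not reported here.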

Additional observations from a re-analysis of the deposited data

How the results depend on the processing

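Of the 53 member results called over the 3 comparisons, all kept their direction and 36 stayed called under each of 17 alternatives, and 18 of the 58 not called were called under none. Members called higher and lower, in the order of IL-4 against untreated, IL-27 against untreated and IL-27 against IL-4, were 8 and 7, 7 and 10, and 7 and 14. DESeq2 gave 10 and 8, 8 and 15, and 7 and 17. Upper-quartile scaling, no filter, and a filter at 1 CPM in 3 libraries each gave counts within 1.5 times these. With only the 2 compared groups in the fit, the IL-4 counts were 5 and 3, beside 1154 and 984 of 12270 genes. The IL-4 calls of Hk2, Pfkfb4, Rpia, Aldoc, Pdk2, Pfkfb2 and Pfkl were lost there. A replicate block, for numbers that did not pair the libraries (r from -0.809 to 0.682 between same-numbered untreated and IL-4 libraries, and -0.00659 to 0.0825 with IL-27), gave 6 and 4 in IL-4 against untreated, 6 and 10, and 6 and 13. Without the 2 libraries that stood apart the counts were 17 and 13, 12 and 17, and 12 and 18, and with a term shared by them 19 and 14, 12 and 17, and 12 and 18. Leaving out 1 library at a time gave 5 to 11 and 3 to 12, 6 to 9 and 8 to 16, and 6 to 9 and 8 to 18. The same counts over all genes were 1630 and 1515, 1766 and 1904, and 2366 and 2642 by edgeR with 9 libraries. They were 1952 and 1888, 2119 and 2310, and 2670 and 2943 by DESeq2. With the block they were 1207 and 1101, 1399 and 1500, and 2034 and 2182, and with the shared term 3532 and 3283, 3296 and 3295, and 3705 and 3933. Without 1 library they were 1214 to 1827 and 1066 to 1839, 1241 to 2232 and 1335 to 2386, and 1869 to 2644 and 1961 to 3056.

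The results that changed sign were not called with 9 libraries. Pdk3 with IL-4 was -0.00764 under upper-quartile scaling. Without both libraries and with the shared term, the log2 fold changes of IL-27 against untreated were 0.0557 and 0.0440 for Gapdh and 0.0592 and 0.0726 for Eno1, and 0.0112 with the term for Pgls. Those of IL-27 against IL-4 were 0.19 and 0.13 for Slc2a6, 0.14 and 0.13 for Ldha, 0.0336 and 0.0125 for Rpia and -0.0550 and -0.0108 for Rpe. Leaving out 1 library moved IL-4 against untreated between -0.0554 and 0.37 for Slc2a1, -0.21 and 0.13 for Hk1, -0.16 and 0.32 for Hk3, -0.0699 and 0.42 for Gpi1, -0.0756 and 0.31 for Pkm, -0.10 and 0.19 for Pdk3 and -0.0176 and 0.42 for Pgls. It moved IL-27 against untreated between -0.36 and 0.0560 for Gapdh and -0.25 and 0.0596 for Eno1. IL-27 against IL-4 moved between -0.28 and 0.19 for Slc2a6, -0.17 and 0.14 for Ldha, -0.0643 and 0.0400 for Rpia and -0.0483 and 0.37 for Rpe. The causes were not tested. Myc, Hif1a, Pygl and Pygb kept each call named in the report under all 17. Hif1a and Pygb with IL-4, not called, moved between -0.25 and 0.11 and between -0.25 and 0.0739 when 1 library was left out. Shares of counts, without gene length, kept Pfkp and Pfkfb3 in the same order of groups but put Ldhb at 6.12% in place of 21.1% of untreated lactate dehydrogenase. Slc2a3 and Pdk4 have the fewest counts (79 to 162 and 91 to 405), which limits their precision.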
